A study of Mus musculus with 6 samples.

Results

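The 10 genes described here encode the TGF-beta ligands (Tgfb1, Tgfb2, Tgfb3), their receptors (Tgfbr1, Tgfbr2, Tgfbr3) and the latent TGF-beta binding proteins (Ltbp1 to Ltbp4). They were taken by gene name from a table of 25700 genes, and all 10 were found and passed the filter on low counts. RNA was sequenced from the proximal end of the incisor, labelled as dental mesenchyme, of 5-week-old C57BL/6 mice, 3 libraries per genotype. The labels number the libraries separately and do not state that each is a separate mouse; they are called mice here, and the p-values measure the spread between them. The protocol speaks of the samples as pairs, but no label says which control goes with which cKO mouse, so every test here is unpaired. Control mice were Runx2fl/fl, with both Runx2 alleles floxed and no Cre. The conditional knockout mice (cKO) were Gli1-CreERT2;Runx2fl/fl, in which tamoxifen switches on a Cre recombinase in cells that express the hedgehog effector Gli1. The labels give the same tamoxifen course for both genotypes: 1.5 mg per 10 g body weight on 3 consecutive days at 1 month of age, with tissue taken 1 week after induction. Because only cKO mice carry Gli1-CreERT2, loss of Runx2, carrying that allele and the presence of an active Cre cannot be told apart in any difference below.

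TGF-beta is secreted in a latent form, wrapped in its own propeptide and usually tied to a latent-binding protein that anchors it to the fibrillin-rich matrix. Integrins, proteases and thrombospondin release the ligand, which brings together the receptors Tgfbr2 and Tgfbr1, and these phosphorylate Smad2 and Smad3. In the tooth this pathway acts in dental mesenchyme and takes part in odontoblast differentiation and dentin formation, and Runx2 is among the transcription factors that work together with Smads.

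Total counts ranged from 53525185 to 66694240 per library, and a member had between 1021 and 28514 counts, a counting error of 0.592% to 3.13% of the value. Levels are given as CPM, counts scaled to a common library size, after TMM scaling, a correction for differences in library composition. Runx2 itself, the targeted gene, stood at 79.7, 77.7 and 81.2 CPM in control 1 to 3 and was lower in each of cKO 1 to 3, at 62.6, 54.0 and 49.0 CPM (log2 -0.53, edgeR adjusted p = 0.0714, DESeq2 adjusted p = 0.000126). Gli1, whose promoter drives the Cre, stood at 159, 89.7 and 207 CPM in controls, against 75.0, 77.9 and 70.6 CPM in cKO mice, without overlap (edgeR adjusted p = 0.131, DESeq2 adjusted p = 0.00183). Control 1 was male by its Xist and Ddx3y counts and the 5 other mice were female. Of the 11 dental mesenchyme markers, 10 were at 1 CPM or more in every library, Barx1 being the exception. Their sum was 8771 to 15345 CPM in controls and 17609 to 32679 CPM in cKO mice, while their median log2 fold change was 0.10, with 9 of 11 above 0 and the lowest at -0.68. Col1a1 is part of this sum and is also counted among the target genes of TGF-beta below. The 4 markers of secretory ameloblasts, the enamel-forming epithelial cells, added up to 60042 to 79541 CPM in controls, against 22163 to 46682 CPM in cKO mice, so the samples also held epithelial RNA. In such bulk samples, fewer cells of a type and less RNA per cell cannot be told apart.

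None of the 10 members passed the threshold between genotypes (edgeR quasi-likelihood test, Benjamini-Hochberg adjusted p from 0.104 to 0.584), where 0.026% of the 19264 genes tested did (0.0208% higher and 0.00519% lower in cKO mice). By the unadjusted edgeR p, 6 members were under 0.05, against 17.3% of all genes. Of these, Tgfb1, Tgfb3 and Ltbp1 were higher in cKO mice (8.71% of all genes) and Tgfbr1, Tgfbr2 and Ltbp2 lower (8.55%). DESeq2, a second count model, called 3 members, against 6.92% of all genes. It called Ltbp1 and Tgfb3 as higher (3.62% of all genes) and Tgfbr2 as lower (3.3%).

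In 5 members the groups did not overlap, against 23.1% of all genes. All cKO values lay above all control values for Tgfb1, Tgfb3 and Ltbp1 (11.1% of all genes) and below them for Tgfbr1 and Tgfbr2 (12% of all genes). The median log2 fold change of the 10 members was 0.12, against 4.8e-05 over all genes tested. The ligands all had higher and the receptors all had lower means in cKO mice, and the latent-binding proteins were divided.

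**Figure D1:**
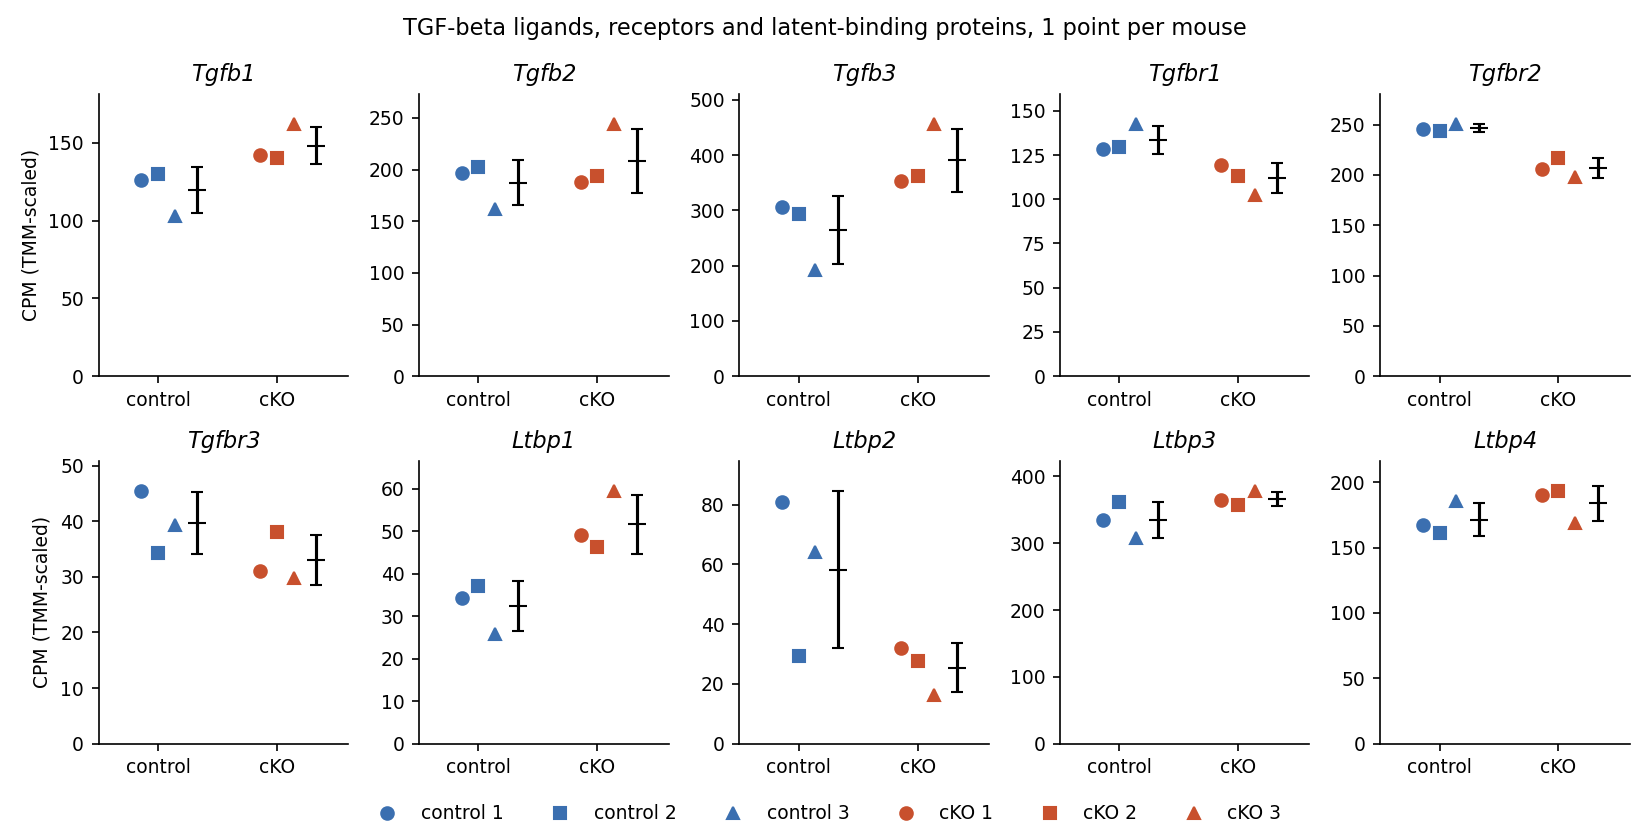
TMM-scaled CPM of the 10 members on a linear axis from 0, with 1 point per mouse (3 control mice in blue, 3 cKO mice in red) and the mean ± SD beside each group. The groups do not overlap for Tgfb1, Tgfb3, Tgfbr1, Tgfbr2 and Ltbp1, and control 2 lies at the cKO level for Ltbp2.

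Among the ligands, Tgfb3 had the largest difference. In GENCODE M21, 7.60% of its exonic bases lie antisense to Gm48008 and 4.82% to Gm37804, the latter at 0.269 CPM in cKO mice. Tgfb3 (chromosome 12, 86056745 to 86079041, build mm10) encodes the isoform best known for palate fusion. It measured 306, 294 and 193 CPM in control 1 to 3 and 354, 363 and 457 CPM in cKO 1 to 3. All cKO values lay above all control values, with control 3 the lowest and cKO 3 the highest. The fold change was 1.48 (log2 0.57, SE 0.19, edgeR adjusted p = 0.20), and DESeq2 called it (adjusted p = 0.0360). With control 3 left out the log2 value was 0.38, and DESeq2 no longer called Tgfb3 without control 3, cKO 1, cKO 2 or cKO 3 (adjusted p from 0.0543 to 0.253 in those fits).

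Tgfb1 (chromosome 7, 25687002 to 25705077) encodes the isoform made by many cell types, blood and immune cells included. Its levels were 126, 130 and 103 CPM in controls, against 142, 140 and 162 CPM in the cKO mice. The groups were again apart, by a gap between 130 and 140 CPM, and control 3 was again lowest. The log2 fold change was 0.31 (SE 0.10, edgeR adjusted p = 0.20), and DESeq2 did not call it (adjusted p = 0.0911). Macrophage markers moved the same way: all 6 had a higher mean in cKO mice, and their sum was 315 to 428 CPM in controls, against 490 to 624 CPM in cKO mice. Markers of neutrophils and marrow added up to 1.28 to 2.53 CPM in controls and to 40.7, 18.8 and 2.13 CPM in cKO 1 to 3. The part of either list in the Tgfb1 difference was not tested.

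Tgfb2 (chromosome 1, 186622792 to 186705989), the isoform that needs a co-receptor for strong receptor binding, measured 197, 203 and 162 CPM in controls, against 188, 194 and 244 CPM in cKO mice. Here the groups overlapped, since cKO 1 and cKO 2 lay below control 1 and control 2. The log2 fold change was 0.16 (SE 0.13, edgeR adjusted p = 0.584), and it was 0.027 without cKO 3, 0.061 without control 3 and 0.091 with late enamel genes, described below, as covariate.

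The receptors all had lower means in cKO mice, by nearly the same amount. Tgfbr2 (chromosome 9, 116084293 to 116175360), the receptor that binds the ligand first, was the most even of them. Control 1 to 3 had 246, 243 and 251 CPM and cKO 1 to 3 had 206, 217 and 198 CPM. The controls lay close together, and the highest cKO mouse stayed below the lowest control. Its log2 fold change was -0.25 (SE 0.058, edgeR adjusted p = 0.105), a cKO level 0.838 times that of control. DESeq2 called Tgfbr2 (adjusted p = 0.00288), and did so in each of the 6 fits with 1 mouse left out (adjusted p from 0.00157 to 0.0454).

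Tgfbr1 (chromosome 4, 47353222 to 47414931) encodes the kinase that Tgfbr2 activates and that passes the signal to Smads. It measured 128, 129 and 143 CPM in controls, against 120, 113 and 103 CPM in cKO mice, and the groups did not overlap. Its log2 fold change, also -0.25 (SE 0.075, edgeR adjusted p = 0.159), was not called by DESeq2 (adjusted p = 0.0707) except without cKO 1 (adjusted p = 0.0286). Over the 6 mice Tgfbr1 and Tgfbr2 were the pair of members most alike, with a root mean square difference of 0.066 between their centred log2 CPM. This distance is a description of 6 libraries and carries no test.

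Tgfbr3 (chromosome 5, 107106570 to 107289629) encodes betaglycan, the co-receptor that presents TGF-beta 2. With 45.4, 34.3 and 39.4 CPM in controls, against 31.0, 38.1 and 29.8 CPM in cKO mice, its groups overlapped, cKO 2 standing above control 2. The log2 fold change was -0.27 (SE 0.13, edgeR adjusted p = 0.345). It was -0.15 without control 1 and -0.090 once the level of late enamel genes was a covariate.

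The latent-binding proteins were divided, 3 with higher and 1 with a lower mean in cKO mice. Ltbp1 (chromosome 17, 75005568 to 75392512) covalently binds latent TGF-beta and had the lowest p of the 10 members. It measured 34.3, 37.1 and 25.7 CPM in controls, against 49.0, 46.3 and 59.3 CPM in cKO mice. Every cKO mouse stood above every control, with control 3 lowest and cKO 3 highest, as for Tgfb3. Ltbp1 was 1.59-fold higher in cKO mice (log2 0.67, SE 0.15, edgeR adjusted p = 0.104). DESeq2 called it (adjusted p = 0.00167), and again in each of the 6 fits with 1 mouse left out (adjusted p from 0.000821 to 0.0307). Macrophage marker sums, 428, 412 and 315 CPM in control 1 to 3 and 490, 587 and 624 CPM in cKO 1 to 3, were also lowest in control 3 and highest in cKO 3, and their part in the Ltbp1 difference was not tested. In the fits with 1 mouse left out DESeq2 called 6.54%, 6.1% and 3.59% of all genes without control 1, 2 and 3, and 5.63%, 4.56% and 3.81% without cKO 1, 2 and 3.

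Ltbp2 (chromosome 12, 84783212 to 84876532) differs from its relatives in that its protein does not bind latent TGF-beta. It gave the largest difference and the largest spread. Control 1 and control 3 were high, at 80.9 and 64.3 CPM, while control 2, at 29.4 CPM, lay among the cKO values of 32.1, 27.8 and 16.4 CPM. The log2 fold change of -1.19 (SE 0.39, edgeR adjusted p = 0.195) varied with the controls that entered. It was -1.51 without control 2, where DESeq2 called it (adjusted p = 8.05e-06), and -0.87 without control 1. Late enamel genes, those of ameloblasts in enamel maturation, split the mice in the same way, in the opposite direction. Their 6 markers added up to 112 and 98.1 CPM in control 1 and control 3, 1801 CPM in control 2 and 1108 to 2628 CPM in the cKO mice. With their mean log2 level as a covariate the Ltbp2 difference was -0.44 (edgeR adjusted p = 0.895). Apart from control 2 this covariate went with genotype, so here and for the other members its fit cannot separate late enamel genes from genotype. Skeletal muscle markers were at 180 CPM in control 1 and 12.2 to 15.4 CPM in the other mice, so muscle RNA was highest in the mouse with the most Ltbp2. Its part was not tested.

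Ltbp3 (chromosome 19, 5740904 to 5758532) encodes a latent-binding protein needed for normal teeth and enamel. It was the most abundant of the family, with 335, 361 and 308 CPM in controls, against 364, 357 and 378 CPM in cKO mice. Only control 2 lay inside the cKO range, and the log2 fold change was 0.13 (SE 0.076, edgeR adjusted p = 0.427). It was 0.074 without control 3 and 0.038 with the late enamel genes as covariate. Ltbp4 (chromosome 7, 27305136 to 27337692), an elastic-fibre organizer, measured 168, 161 and 185 CPM in controls, against 190, 193 and 168 CPM in cKO mice. The groups overlapped, with a log2 fold change of 0.10 (SE 0.080, edgeR adjusted p = 0.564). It was 0.060 without control 2, 0.16 without control 3 or cKO 3 and 0.17 with the late enamel covariate.

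RefSeq promoter windows of GRCm38.p6, from 250 bases before to 50 after a start, were found for 8 of the 10 members, 12 windows in all. Each was searched on both strands for TGTGGT and TGCGGT, forms of the site bound by RUNX proteins, for the GLI site GACCACCCA and for CAGACA, which contains a Smad-binding core. A RUNX form was found in 1 window, that of the downstream start of Ltbp1, against 22.4% of 32851 windows of all genes. The GLI site was in none, against 0.253% of all windows, and CAGACA was in 4, against 21.0%. The windows of Ltbp1 and Tgfbr2 are shown because these members had the lowest p, in opposite directions. Letters run 5′ to 3′ on the strand of the gene, capitals mark TGTGGT, and its first bases stand at -71 and -33, counted from -1 as the last base before the start.
Ltbp1 upstream start, chr17:75005279-75005578, plus strand: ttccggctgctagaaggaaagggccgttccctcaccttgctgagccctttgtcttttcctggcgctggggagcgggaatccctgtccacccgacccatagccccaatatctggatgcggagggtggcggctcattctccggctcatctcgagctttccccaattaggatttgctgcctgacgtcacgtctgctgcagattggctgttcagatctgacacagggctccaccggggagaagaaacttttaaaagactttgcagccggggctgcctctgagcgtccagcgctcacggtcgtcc
Ltbp1 downstream start, chr17:75178531-75178830, plus strand: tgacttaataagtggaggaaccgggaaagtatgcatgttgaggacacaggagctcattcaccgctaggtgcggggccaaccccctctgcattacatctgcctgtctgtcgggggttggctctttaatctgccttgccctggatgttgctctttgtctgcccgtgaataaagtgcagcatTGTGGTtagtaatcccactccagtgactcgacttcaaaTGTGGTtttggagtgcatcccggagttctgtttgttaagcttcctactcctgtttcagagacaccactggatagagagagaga
Tgfbr2, chr9:116175314-116175613, minus strand: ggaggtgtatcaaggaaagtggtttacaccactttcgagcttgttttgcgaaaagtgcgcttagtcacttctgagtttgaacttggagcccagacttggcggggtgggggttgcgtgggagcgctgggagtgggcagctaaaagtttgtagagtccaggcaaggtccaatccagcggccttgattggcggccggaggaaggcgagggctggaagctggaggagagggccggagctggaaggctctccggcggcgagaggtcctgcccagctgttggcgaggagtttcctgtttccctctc
A match is a description of letters and not a bound site. The last bases of both Ltbp1 windows were not found in a GENCODE M21 transcript of the gene, unlike those of Tgfbr2. The positions in Ltbp1 therefore rest on the RefSeq starts alone. The counts pool the transcripts of both Ltbp1 starts, so the difference in Ltbp1 cannot be given to either of them.

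Per kilobase of exonic sequence (RPKM, from CPM and the union of GENCODE M21 exons), Tgfb3 was the most abundant member in both groups. It measured 78.1 ± 18.3 RPKM in controls and 116 ± 16.8 in cKO mice (SD, n = 3 each). In controls it was followed by Ltbp3 (36.9), Tgfb2 (32.3), Tgfbr2 (30.2), Ltbp4 (26.5), Tgfb1 (23.7) and Tgfbr1 (20.4), all as mean RPKM. Neighbours in this run overlapped between mice, except that Tgfbr2 lay above Ltbp4 and Tgfb3 above Ltbp3 in every pairing of control mice. Far lower stood Ltbp2 (7.11), Tgfbr3 (6.06) and Ltbp1 (3.03 RPKM), of which Ltbp2 and Tgfbr3 overlapped. In cKO mice Tgfb1, with a mean of 29.4 RPKM, stood above Tgfbr2, with 25.3 RPKM, in every pairing of mice, the reverse of the control order. These levels depend on the length used. With the longest transcript, Tgfb1 stood above Tgfbr2 in both groups, at 46.5 against 30.5 RPKM in controls and 57.6 against 25.6 RPKM in cKO mice, so that order was not reversed. Ltbp3 then came to 58.4 RPKM in controls.

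**Figure D2:**
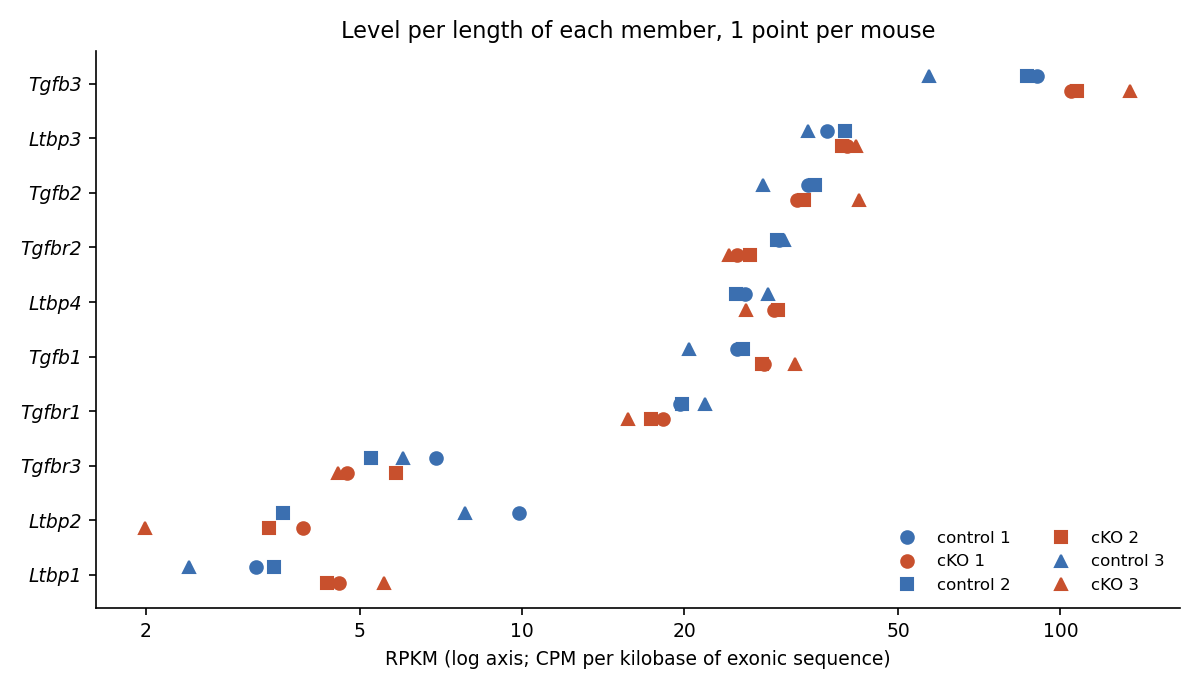
Level per length of each member in RPKM on a log axis, 1 point per mouse, with control mice in blue and cKO mice in red. Tgfb3 lies at 57.0 RPKM or above in all 6 mice, and Ltbp1, Ltbp2 and Tgfbr3 lie below 10 RPKM.

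The make-up of the ligand RNA was compared as the share of each ligand in the summed RPKM of the 3. Tgfb3 made up 60.5%, 58.8% and 54.1% in controls and 63.3%, 63.6% and 64.5% in cKO mice. The difference of 5.99 percentage points had an exact two-sided permutation p of 0.1, the smallest that 3 against 3 mice allow. Tgfb2 made up 22.7%, 23.7% and 26.6% in controls and 19.6%, 19.9% and 20.2% in cKO mice (difference -4.46, exact permutation p = 0.1). Both sets of shares were apart between the groups, whereas the Tgfb1 shares overlapped (17.8% ± 1.34 against 16.3% ± 0.866, SD, n = 3 each, exact permutation p = 0.2).

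Among latent-binding proteins Ltbp3 held the largest share in both groups, with means of 50.2% ± 4.65 in controls and 52.6% ± 2.34 in cKO mice (SD, n = 3 each, exact permutation p = 0.5). The share of Ltbp1 was 4.23%, 4.83% and 3.30% in controls and 5.86%, 5.63% and 7.37% in cKO mice (exact permutation p = 0.1). Ltbp2 went from 9.60% ± 4.13 to 4.03% ± 1.23, with overlapping groups (exact permutation p = 0.2), and Ltbp4 from 36.1% ± 2.85 to 37.0% ± 2.16 (exact permutation p = 0.9). Over the 7 shares no adjusted p was below 0.233 (Benjamini-Hochberg), so none passed and none could have. With the longest transcript as length, the mean Tgfb3 share was 48.1% in controls and 53.9% in cKO mice.

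**Figure D3:**
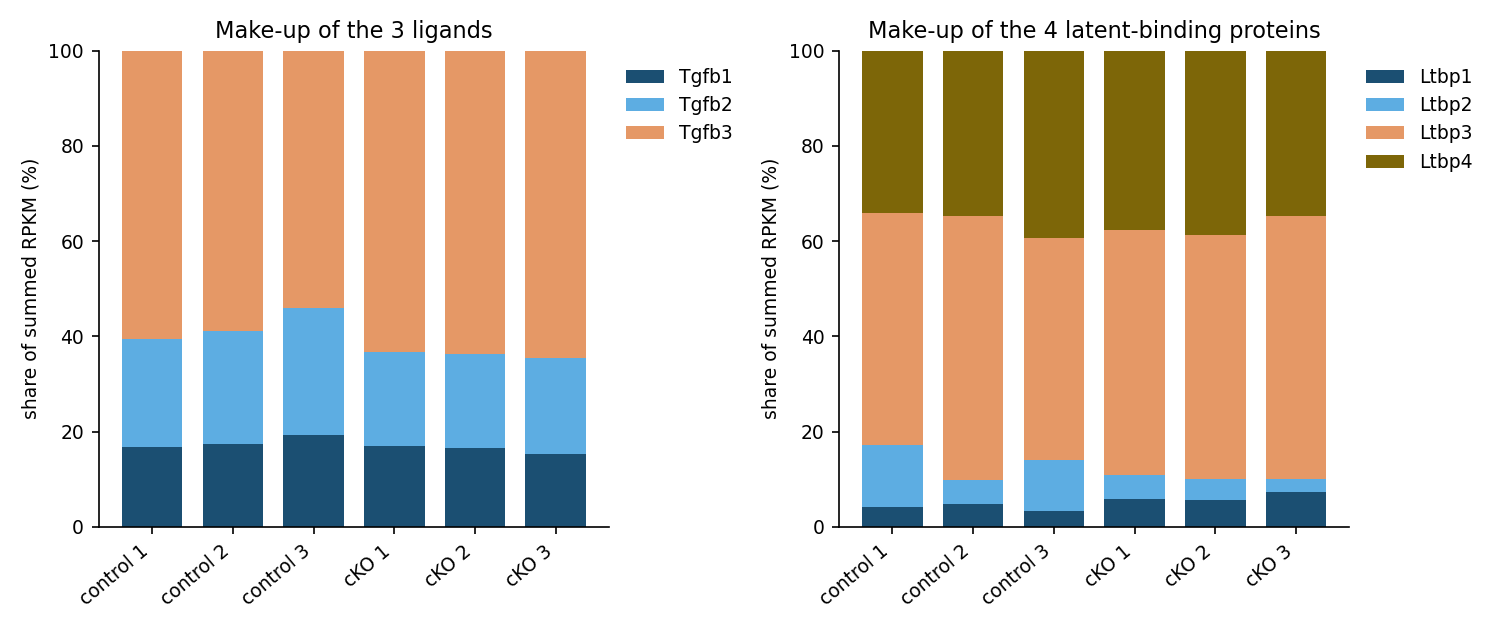
Share of each gene in the summed RPKM of its family, in percent, as 1 stacked bar per mouse (3 control mice, then 3 cKO mice). The Tgfb3 share is at most 60.5% in controls and at least 63.3% in cKO mice, and the Ltbp2 share of control 2 (5.01%) is close to that of cKO 1 (5.02%).

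Leaving out 1 mouse at a time changed the size of these differences but turned the direction of none of the 10 members. Control 3 and cKO 3 mattered most for the ligands and Ltbp1: without control 3 the log2 fold change of Tgfb1 was 0.21 and that of Ltbp1 0.53. Without control 2, 8 members had groups that did not overlap, against 35.9% of all genes in that comparison of 2 with 3 mice. Tgfbr2 was the steadiest, between -0.28 and -0.22 over these fits.

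**Figure D4:**
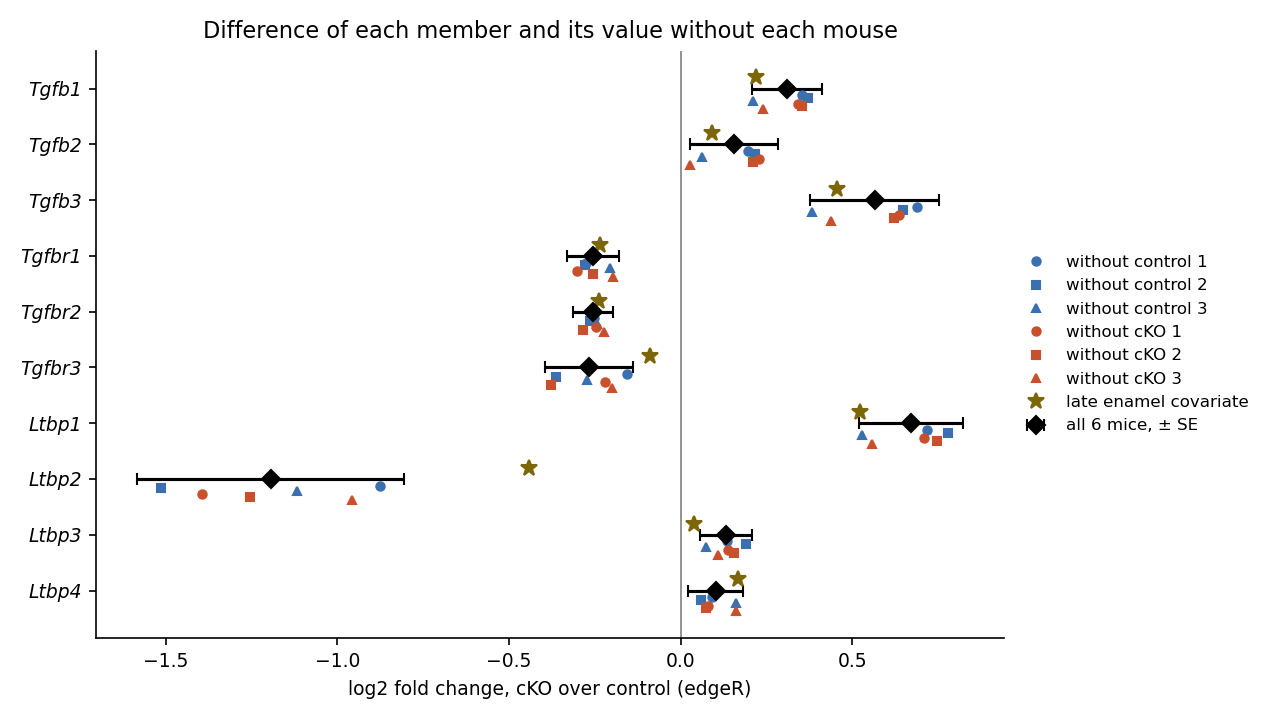
Log2 fold change (cKO over control, edgeR) of each member with all 6 mice (black diamond, bar = SE), without each mouse in turn (coloured points) and with the late enamel genes as covariate (star). The points of Tgfbr2 lie close together, and those of Ltbp2 span from -1.51 to -0.44.

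The gene with the pattern most like that of Ltbp1 over the 6 mice, among 10564 genes with a mean of at least 10 CPM and counts in every library, was the Fc receptor gene Fcgr3. Its root mean square difference from Ltbp1 in centred log2 CPM was 0.068, against a median of 0.41 over all these genes. Fcgr3 measured 27.5, 30.4 and 22.8 CPM in controls, against 38.0, 38.8 and 45.9 CPM in cKO mice. Ms4a4a, a membrane protein of the MS4A family (0.070), and Cubn, which encodes the endocytic receptor cubilin (0.082), came next. The macrophage marker sums given above had the same lowest and highest mouse as Ltbp1 and Fcgr3.

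Other genes of the pathway were counted in 5 lists. The lists were chosen with earlier results of these data known, so their counts and medians are descriptions and not tests. No gene of any list passed in edgeR, where 28 of the 71 listed genes had an unadjusted p under 0.05 (17.3% of all genes), and DESeq2 called 17 (6.92% of all genes). In the list of matrix proteins that hold or bind TGF-beta, 11 of 12 log2 fold changes were above 0. Their median was 0.46, against 4.8e-05 over all genes tested. Without control 3 this median came to 0.26, and to 0.28 with the late enamel covariate. DESeq2 called 5 of the 12 as higher (3.62% of all genes) and 1 as lower (3.3% of all genes). Marker sums of matrix-forming cells were also higher in cKO mice, from 3023 to 5262 CPM up to 6628 to 12951 CPM for odontoblasts and from 2119 to 3016 CPM up to 3325 to 4987 CPM for osteoblasts. The osteoblast markers had a median log2 fold change of 0.0030, with 3 of 5 above 0, and the part of either list was not tested. Bgn, a proteoglycan that binds TGF-beta, measured 707, 661 and 556 CPM in controls, against 1132, 1011 and 1305 CPM in cKO mice, all above the controls (edgeR adjusted p = 0.0669). The related proteoglycan Aspn had a log2 fold change of 0.72 (SE 0.15, edgeR adjusted p = 0.0878), and elastin, Eln, one of 0.45 (SE 0.090, edgeR adjusted p = 0.0878). Fbln1, a matrix glycoprotein, was lower in every cKO mouse (log2 -0.58, SE 0.085, edgeR adjusted p = 0.0631).

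Genes that activate or release latent TGF-beta were split, with 8 of 15 above 0. Their median was 0.038, between -0.022 without control 3 and 0.061 without cKO 2. DESeq2 called 2 as higher (3.62% of all genes) and 1 as lower (3.3% of all genes). The lower gene was Itgb6, a subunit of an epithelial integrin that activates TGF-beta, at 43.9, 54.8 and 56.7 CPM in controls, against 29.9, 29.7 and 24.1 CPM in cKO mice (edgeR adjusted p = 0.0614). Itgb6 is an epithelial gene, and the secretory ameloblast markers given above were lower in cKO mice as well. The 7 markers of dental epithelium, of which 2 were higher, overlapped in their sums, 2739 to 3652 CPM in controls and 2303 to 3656 CPM in cKO mice. The part of the ameloblast markers' lower level in the Itgb6 value was not tested. Nrros, which holds latent TGF-beta on macrophages and microglia, measured 12.6, 12.0 and 10.9 CPM in controls, against 15.3, 14.7 and 16.1 CPM in cKO mice (edgeR adjusted p = 0.0982), beside the higher macrophage markers. Bmp1, a protease that cuts Ltbp1 and procollagens, had a log2 fold change of 0.64 (SE 0.15, edgeR adjusted p = 0.114) and the gelatinase Mmp9 one of -1.15 (SE 0.34, edgeR adjusted p = 0.158).

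Accessory receptors had 4 of 7 genes above 0 and a median of 0.22, or 0.15 with the late enamel covariate. Eng, the co-receptor of endothelial cells, measured 122, 113 and 107 CPM in controls, against 134, 144 and 144 CPM in cKO mice (edgeR adjusted p = 0.0935). DESeq2 called Eng, as the 1 gene of this list, against 6.92% of all genes. All 6 endothelial markers had higher means in cKO mice as well, with sums of 394 to 418 CPM in controls, against 471 to 496 CPM in cKO mice, and their part was not tested. Acvrl1, Nrp1 and Cd109 had log2 fold changes of 0.36, 0.22 and -0.26, each with overlapping groups.

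Transducers and inhibitors inside the cell showed the smallest differences, between -0.18 and 0.11 on the log2 scale over 17 genes, with a median of -0.066, or -0.040 without control 1. Smad3, which carries the signal to the nucleus, measured 117, 112 and 118 CPM in controls, against 108, 115 and 104 CPM in cKO mice. Smurf2, a ubiquitin ligase that removes the receptors, was lower in every cKO mouse (log2 -0.18, SE 0.052, edgeR adjusted p = 0.153). Zfyve9, which brings Smads to the receptor, and the repressor Tgif2 had log2 fold changes of -0.12 and -0.10. DESeq2 called none of the 17, against 6.92% of all genes. An unadjusted edgeR p under 0.05 was reached by 1 (5.88%), against 17.3% of all genes.

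Genes often read as targets of TGF-beta went in both directions, with 14 of 20 above 0, a median of 0.27 and a range from -2.86 to 1.37. Without control 3 their median came to 0.18, and to 0.13 with the late enamel covariate. DESeq2 called 4 as higher, against 3.62% of all genes. They were the tendon factor Scx, the collagen gene Col1a1, the collagen crosslinker Lox and the matrix protein Postn. The last 3 were chosen for mention after their values were seen. DESeq2 called 3 as lower (3.3% of all genes), the contractile genes Cnn1, Acta2 and Tagln. Acta2 measured 155, 102 and 177 CPM in controls, against 66.5, 63.2 and 51.0 CPM in cKO mice (edgeR adjusted p = 0.0669). The log2 fold changes of Cnn1 and Tagln were -2.86 (SE 0.34, edgeR adjusted p = 0.0610) and -1.41 (SE 0.27, edgeR adjusted p = 0.0833). Scx, low at 1.18 ± 0.228 and 2.12 ± 0.233 CPM (SD, n = 3 each), had a log2 fold change of 0.85 (SE 0.20, edgeR adjusted p = 0.109). Cell type markers were read beside these genes. Of the 8 smooth muscle and pericyte markers, which include Acta2, Tagln and Cnn1, 4 had a lower and 4 a higher mean in cKO mice. DESeq2 called 4 as lower (3.3% of all genes) and 1 as higher (3.62% of all genes). Log2 fold changes of the 8 ran from -2.86 to 0.21. Their sum was 1146 to 1330 CPM in controls, against 1062 to 1198 CPM in cKO mice, with overlapping groups. Because Acta2, Tagln and Cnn1 are part of this sum, it is not a separate observation. Of the 5 odontoblast markers, summed above, 4 had a higher mean in cKO mice. The part of either in the target genes and in the ligands was not tested.

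**Figure D5:**
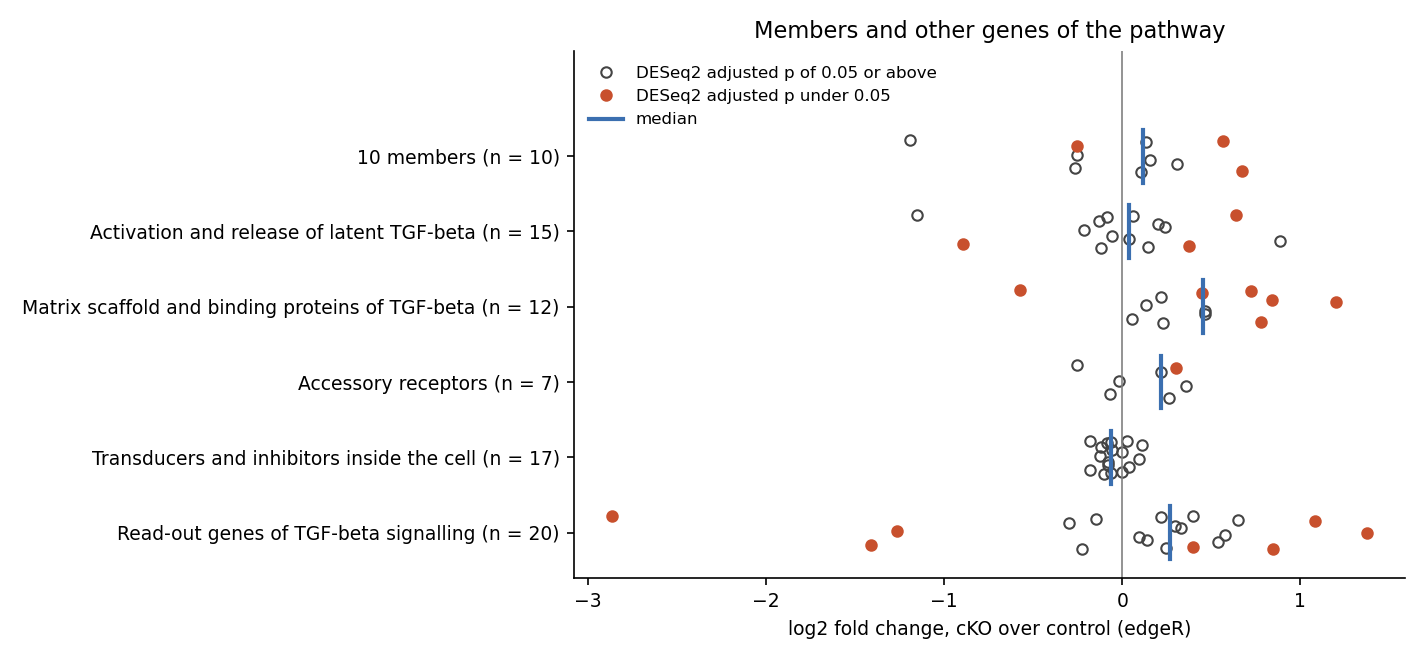
Log2 fold change (cKO over control, edgeR) of the 10 members and of 5 lists of pathway genes, 1 circle per gene, filled in red where the DESeq2 adjusted p is under 0.05, with the list median as a blue line. The 17 transducers lie between -0.18 and 0.11, while the 20 target genes run from -2.86 to 1.37.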

How the data were processed

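Per the submitters' processing notes, the authors used STAR 2.6.1d and Partek with the build mm10. Not given in the sources used here: settings, annotation and strand handling. The deposited values are estimated counts per gene (45.6% to 48.0% whole, tolerance 1e-09), rounded here to whole numbers. A second deposited table, a rescaled copy for fewer genes, was not used. Mice were numbered in accession order within a genotype.

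edgeR 4.0.16 (R 4.3.3) tested the 19264 genes that filterByExpr kept (at least 10 counts, 15 in total). Scaling was by TMM, and the two-sided quasi-likelihood F-test had no covariates. P-values were adjusted by Benjamini-Hochberg over all tested genes, threshold 0.05, and standard errors come from the fold change and F. DESeq2 1.42.0 was the second tool. In simulated counts for this comparison and these 19264 genes, edgeR found 66% of the genes given a log2 change of 1 and 92% of those given 2. DESeq2 found 74% and 90% of them. Among genes given no change, DESeq2 made 42 false calls and edgeR 8. Only a small part of the genes was given a change. The 42 were therefore a larger share of the DESeq2 calls than the 0.05 threshold aims for, and larger than in edgeR. The DESeq2 calls given here carry that limit. Changes below 1 were not simulated. The members other than Ltbp2 had log2 fold changes smaller than that, so the recovery does not apply to them. In the measured counts edgeR called 5 genes in all.

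The members and gene lists were chosen with earlier results of these data known. Named genes are the 10 members, Runx2, Gli1, the 4 genes of lowest p per list and the 3 most like the member of lowest p. Col1a1, Lox and Postn were named after their values were seen, and Barx1, Xist and Ddx3y as checks of tissue and sex. Coordinates are the table's in mm10, the end reduced by 1. In GENCODE M21, 5 members share exonic bases with another gene, up to 9.34% of Ltbp2 with the antisense D030025P21Rik (0.180 CPM in controls).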

Additional observations from a re-analysis of the deposited data

How the results depend on the processing

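No paired analysis was possible because library numbers in the labels differ throughout and, although the protocol speaks of pairs, tie no control to a cKO mouse. All 10 members kept their direction under the 12 alternatives planned, and the 7 shares kept theirs with another gene length and without each mouse. With DESeq2 in place of edgeR, 3 members were called, with log2 fold changes of 0.57 (Tgfb3), -0.25 (Tgfbr2) and 0.67 (Ltbp1), and 1333 genes in all. Other scaling (upper-quartile or RLE) and other filters left the count of members called at 0, with 6 at an unadjusted edgeR p under 0.05. Of all 19264 genes, 3337 with upper-quartile and 3328 with RLE scaling were under 0.05. The counts were 2885 of 15164 genes with a filter of 1 CPM in 3 libraries and 3717 of 25698 with no filter. Once late enamel genes were a covariate, edgeR called 0 genes in all, with 1480 at an unadjusted p under 0.05, 2 of them members. The covariate went with genotype except in control 2, and its fit left less of the data to estimate the spread. The fit therefore cannot separate late enamel genes from genotype, and the cause was not tested. Without 1 mouse, edgeR called between 0 and 72 genes in all and 0 members. At an unadjusted p under 0.05 were 4 to 8 members, against 2359 to 3278 genes of the 19620 to 19736 tested. The 72 came without control 2, and 0 without control 1, cKO 1 or cKO 2, where 3103, 3278 and 2700 genes had an unadjusted p under 0.05 and DESeq2 called 1291, 1105 and 897. DESeq2 called 2 to 4 members in the fits without 1 mouse, against 3.59% to 6.54% of all genes. These DESeq2 fits were added after seeing the data. Members whose groups did not overlap numbered 5 to 8 with 1 mouse left out, against 29.8% to 38% of all genes in those comparisons and 23.1% with all mice, also added after seeing the data. The median of the list of genes that release latent TGF-beta was -0.022 without control 3, where that of the matrix list was 0.26 and that of the target genes 0.18. At 1021 counts or more per member and library, the spread between 3 mice limits these comparisons more than depth does.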
